A study of Mus musculus with 18 samples.

Results

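Heat shock proteins and the DnaJ proteins that serve them were followed in the mouse hippocampus. A gene was taken as a member when the series matrix held a probe set annotated to that gene alone and its symbol began with Hspa, Hspb, Hspd, Hspe, Hsph, Hsp90, Dnaja, Dnajb or Dnajc. The rule found 72 of the 18193 genes with a probe set of their own, and 174 probe sets. The probe set of the highest mean signal stood for the gene. A mean signal above 20 over all arrays, in unlogged MAS5 units, was required for a test, and 59 members were among the 11656 genes that passed. Hsp90ab1, the constitutive cytosolic HSP90, has no probe set of its own by this rule and was not analysed here.

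The RNA came from the hippocampus of male C57Bl/6 mice, with 3 arrays (Affymetrix GeneChip Mouse 430 2.0) in each of 6 groups and 18 arrays in all. The study's methods name the substrain C57BL/6J. Intermittent hypoxia treatment (IHT) was a 3 min cycle, 1 min of nitrogen and then 2 min of room air, that took the inspired oxygen between 21% and 5% for 8 h per day, and mice were 10 weeks old when it began. IH5D mice had 5 daily sessions and were killed at the end of the last one. IH5DR2 mice had 5 sessions and then 64 h of normoxia, and IH28D mice had 28 sessions. Ctrl were untreated young mice, Ctrl28 were kept in normoxia for 28 days as the control of IH28D, and the mice called 12 m were reared for 12 months with no treatment. Whether the arrays of a group come from separate mice is not in the labels, so the p-values measure the spread between arrays, which may be technical. Whole hippocampus was measured, so fewer cells of a type and less RNA per cell cannot be told apart.

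HSP70 proteins, named Hspa in the mouse, bind exposed hydrophobic stretches of unfolded proteins and release them in a cycle driven by ATP. DnaJ proteins (HSP40) bring them clients and start the hydrolysis of ATP, the HSP110 proteins Hsph1, Hspa4 and Hspa4l exchange the nucleotide, and HSP90 proteins act later on kinases and steroid receptors. Small heat shock proteins (Hspb) hold unfolded proteins without ATP, and Hspd1 with its lid Hspe1 forms the folding chamber of the mitochondrial matrix. In the cytosol the inducible members are switched on by heat shock factor 1 (HSF1), and in the endoplasmic reticulum by the factors Atf6 and Xbp1 of the unfolded protein response. Neurons are known for a weak HSF1 response and for a high constitutive level of Hspa8.

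The DNA elements that these factors read are shown first, as background. Whether members that hold an element changed more than others was not tested. RefSeq start sites (GRCm38.p6) gave a window of 300 bases, 250 before and 50 after the start, for 59 of the 72 members. The endoplasmic reticulum stress element was searched as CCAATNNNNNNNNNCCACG or its reverse complement CGTGGNNNNNNNNNATTGG. It was found in 3 members, which is 5.08% of those with a window, against 0.137% of 27025 genes. They are Hspa5 (BiP, the HSP70 of the endoplasmic reticulum), Hsp90b1 (Grp94, its HSP90) and Dnajc3 (p58IPK, a DnaJ protein there that is also an inhibitor of the kinase Perk). The sequences below are written 5′ to 3′ on the strand of the gene, with the element in capitals, and Hsp90b1 holds it once in each direction. Hspa5 is at chr2:34771970-34772089 on the plus strand, Hsp90b1 at chr10:86705525-86705674 on the minus strand and Dnajc3 at chr14:118937802-118937911 on the plus strand.
Hspa5: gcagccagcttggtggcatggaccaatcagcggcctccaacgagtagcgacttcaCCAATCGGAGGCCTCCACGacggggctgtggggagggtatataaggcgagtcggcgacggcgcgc
Hsp90b1: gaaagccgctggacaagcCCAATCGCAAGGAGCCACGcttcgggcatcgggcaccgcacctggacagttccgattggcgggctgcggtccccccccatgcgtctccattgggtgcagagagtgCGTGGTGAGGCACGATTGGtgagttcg
Dnajc3: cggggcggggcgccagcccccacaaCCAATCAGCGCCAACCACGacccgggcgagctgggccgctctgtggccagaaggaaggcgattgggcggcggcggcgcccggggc

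The heat shock element was searched as 3 alternating units, GAANNTTCNNGAA or TTCNNGAANNTTC, on both strands, and overlapping matches were counted once per gene. It was found in Hspd1, Hspe1, Dnajb6 and Hsph1, which is 6.78% of the members with a window against 0.662% of all genes. Hspd1 and Hspe1 lie head to head on chromosome 1, and the matches in their windows are the same bases. They lie between the start of Hspe1 and the Hspd1 start of its window (55087932), while the RefSeq gene entry of Hspd1 runs on to 55088243, past the start of Hspe1 at 55088148. The stretch is shown here on the plus strand at chr1:55088018-55088117. The Dnajb6 stretch is at chr5:29735798-29735897 on the plus strand. The Hsph1 match lies after its start site and is not printed. A match is a run of letters in a window and was not tested for binding, and Hspa8, Hspa9, Hsp90aa1 and Dnajc2 are among the 13 members without a window. The inducible Hspa1a, Hspa1b, Dnajb1 and Hspb1 are not among the matches, for want of a match or of a window. The pattern allows no mismatch and the window is 300 bases, so a gene without a match may still hold an element.
Hspe1: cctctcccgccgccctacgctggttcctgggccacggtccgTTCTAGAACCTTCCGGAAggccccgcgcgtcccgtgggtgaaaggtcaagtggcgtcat
Dnajb6: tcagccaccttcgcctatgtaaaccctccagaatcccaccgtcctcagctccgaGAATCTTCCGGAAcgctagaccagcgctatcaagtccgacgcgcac

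A pair of arrays stood apart. Array 3 of 12 m went against its tissue label: the mean log2 signal of 14 measured markers of hippocampal pyramidal and granule neurons was 6.39 there and 8.46 on both other 12 m arrays, and that of 10 markers of neocortex, striatum and septum was 8.31 against 6.81 and 6.79. Array 1 of Ctrl28 had a 3′ to 5′ gap, the excess of 3′ over 5′ probe set signal that grows as RNA breaks down, of 2.39 on the log2 scale, against 0.328 to 0.966 on the other 17 arrays. Results that rest on these arrays are given with and without them. Counts of members with arrays left out stand without the share of all genes, and are not read as a result about the members. Markers of the choroid plexus, a tissue that borders the hippocampus, varied within groups: their summed signal was 1920 to 20231 in Ctrl, 3403 to 18853 in IH5D, 10551 to 18088 in IH5DR2, 18112 to 22424 in Ctrl28, 5147 to 18847 in IH28D and 755 to 1811 in 12 m.

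One fit of limma over all 18 arrays gave each log2 change with its standard error, and a member rose or fell where its p, adjusted over all 11656 genes, was below 0.05. By this test 38 of the 59 members rose or fell in at least 1 of 6 comparisons and 21 in none, a share of 64.4% where 63.4% of all genes were called in at least 1. Among the 21 were the classical stress proteins Hspa1a, Hspa1b, Hsph1 and Dnajb1, the constitutive Hspa8 and the mitochondrial Hspa9.

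**Figure D1:**
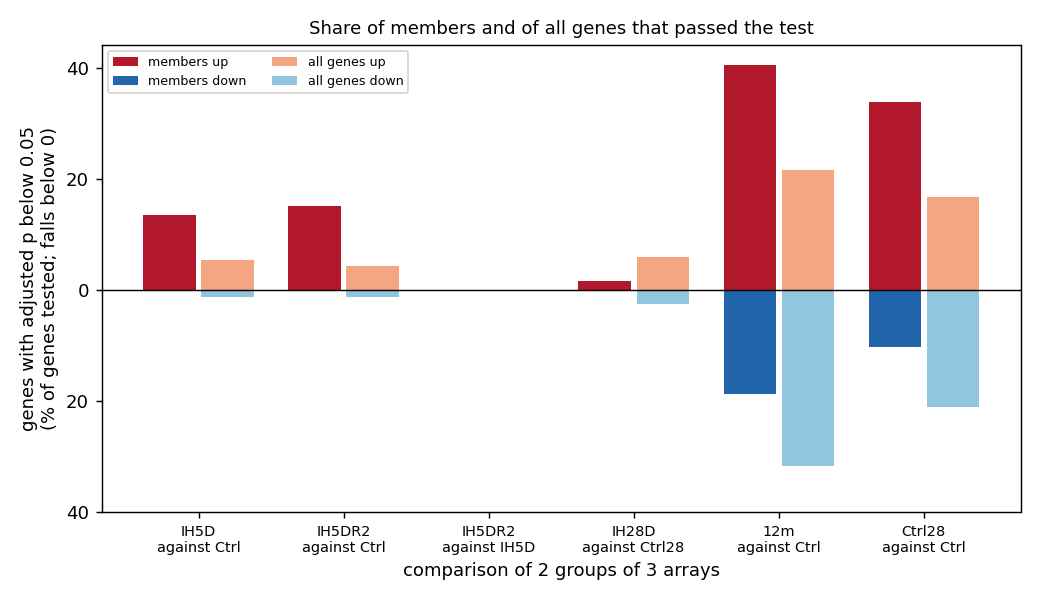
Share of members (dark bars, of 59) and of all genes (pale bars, of 11656) with an adjusted p below 0.05 in each comparison of 3 against 3 arrays, in percent of the genes tested, with rises above and falls below 0. In IH5D 13.6% of members and 5.4% of all genes rose, in IH5DR2 15.3% and 4.38%, and no member fell in either.

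**Figure D2:**
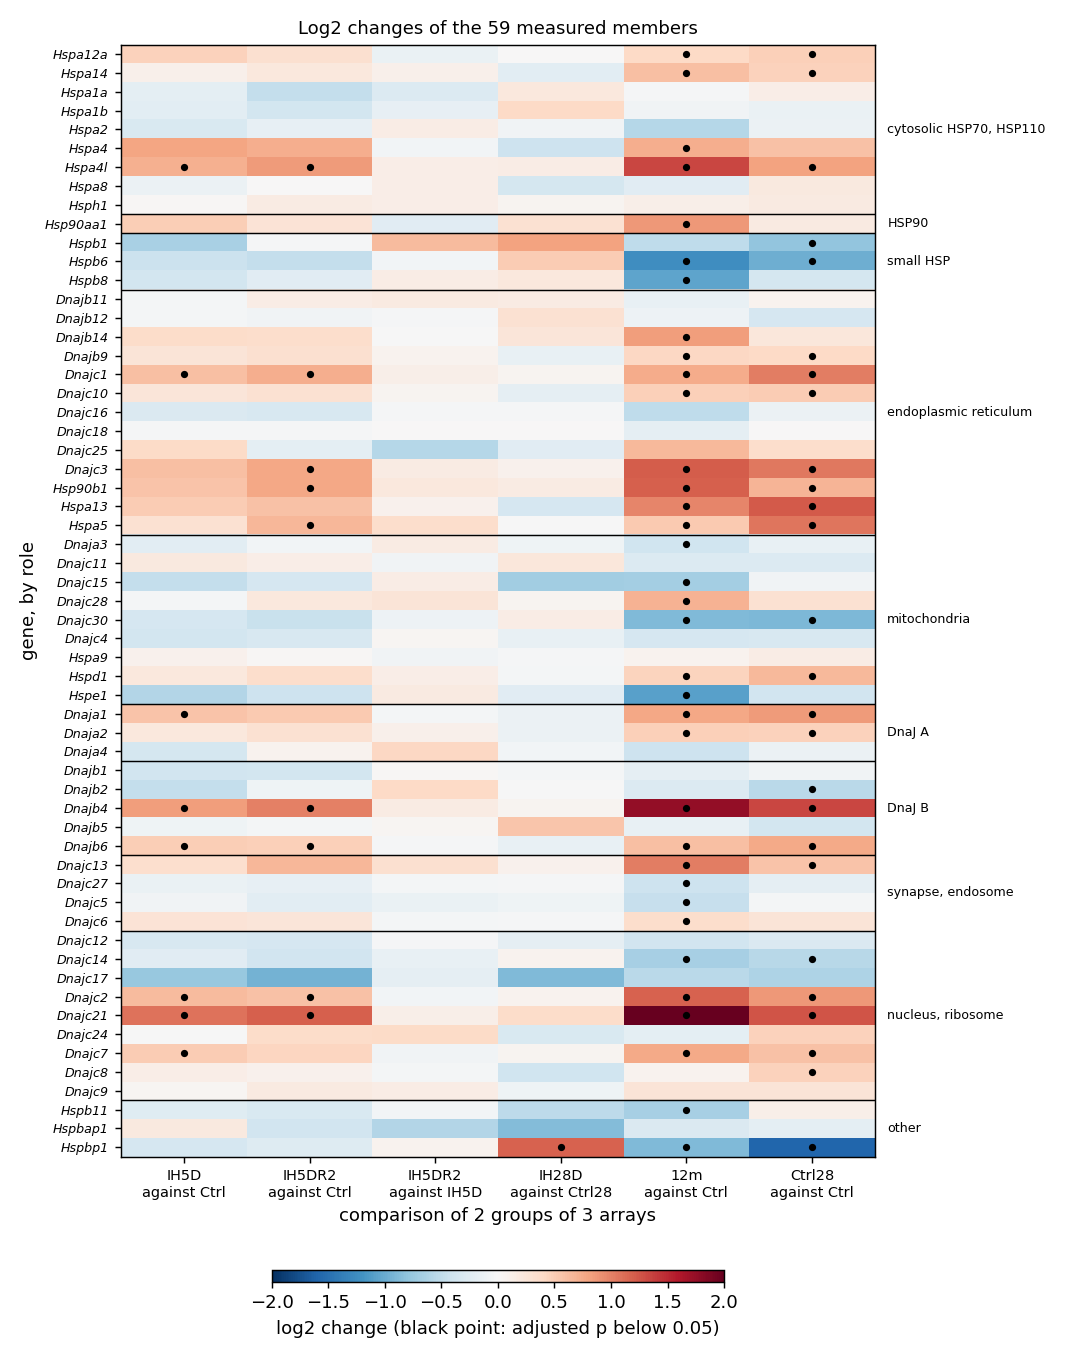
Log2 change of each of the 59 measured members (rows, grouped by role) in 6 comparisons (columns, 3 against 3 arrays), with red for higher and blue for lower in the first named group and a black point where the adjusted p was below 0.05. Colours stop at 2 and Dnajc21 in 12 m, at 2.39, lies beyond. The endoplasmic reticulum block, which does not include Dnajc14, holds rises and no called fall in any column. Hspbp1 is the single point in the IH28D column.

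After 5 sessions of IHT 8 members were higher than in Ctrl and none was lower in the main fit, which does not pair arrays by number. They were the HSP110 protein Hspa4l and the DnaJ proteins Dnaja1, Dnajb4, Dnajb6, Dnajc1, Dnajc2, Dnajc7 and Dnajc21. This is 13.6% of the 59 members, where 6.52% of all genes were called, 5.4% upward and 1.12% downward. The member median was 0.03 on the log2 scale against -0.09 over all genes.

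Dnajc21, a DnaJ protein of ribosome assembly, had signals of 47.1, 52.6 and 51.2 in Ctrl and 104, 137 and 85.1 in IH5D. Each IH5D array was above each Ctrl array, and the log2 change was 1.09 ± 0.31 (SE; adjusted p = 0.0436). Dnajb4, a DnaJ protein of class B in the cytosol, went from 205, 149.7 and 130.1 to 295, 264 and 289, again without overlap, by 0.83 ± 0.23 (SE; adjusted p = 0.0398). Its brightest probe set carried this value, and another of its 3 probe sets, with a mean signal of 31.2, had a log2 change of -0.19. Hspa4l, the HSP110 nucleotide exchange factor, had 221, 133 and 165 in Ctrl and 277, 259 and 299 in IH5D, a change of 0.72 ± 0.20 (SE; adjusted p = 0.0421).

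Dnajb6, which suppresses polyglutamine and other aggregates, had 1082, 969 and 1236 in Ctrl and 1416, 1474 and 1708 in IH5D, so all 3 treated arrays exceeded the controls. Its change of 0.49 ± 0.11 (SE; adjusted p = 0.0209) had the smallest p of the 8. Dnaja1, a general partner of Hspa8, changed by 0.57 ± 0.16 (SE; adjusted p = 0.0398), and Dnajc2, a DnaJ protein of the ribosome exit, by 0.64 ± 0.17 (SE; adjusted p = 0.0365). Hsp90aa1, the inducible HSP90, had 2804, 2602 and 2691 in Ctrl and 3909, 3782 and 3746 in IH5D, which do not overlap, yet its change of 0.50 ± 0.15 (SE; adjusted p = 0.053) missed the threshold, as did Hsp90b1 at 0.56 ± 0.17 (SE; adjusted p = 0.0529). Without Ctrl28 array 1 both were called, with the same changes and adjusted p of 0.0011 for Hsp90aa1 and 0.00667 for Hsp90b1.

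These 8 calls were close to the threshold. No member was called when Ctrl array 2 or 3 or IH5D array 1 or 3 was left out, 1 was called without IH5D array 2, 2 each without IH5DR2 array 1 or 2 or 12 m array 1, 3 to 5 without IH5DR2 array 3, 12 m array 2 or IH28D array 3, and 20 (15 up, 5 down) without Ctrl28 array 1, whose spread the fit shares. With the replicate number as a block the fit called 3 members over all arrays and 29 (19 up, 10 down) over these groups alone, and with the choroid plexus markers as a covariate it called 2. With the mean of all probe sets of a gene, 3 of the 6 called members with a change given above lost their calls. A dimmer probe set of Dnajc1 had the opposite sign, as for Dnajb4.

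After 5 sessions and 64 h of normoxia 9 members were higher than in Ctrl and none was lower, 15.3% of the members against 5.61% of all genes, 4.38% upward and 1.24% downward. Hspa4l, Dnajb4, Dnajb6, Dnajc1, Dnajc2 and Dnajc21 were among them, together with Hspa5, Hsp90b1 and Dnajc3 of the endoplasmic reticulum. In the endoplasmic reticulum list 4 of 13 members rose, and its median log2 change was 0.32 against -0.07 over all genes. In IH5D the list had 1 rise (Dnajc1, with a probe set of the opposite sign) and a median of 0.31.

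Hspa5 had 788, 648 and 575 in Ctrl, 751, 966 and 774 in IH5D and 1077, 1062 and 1017 in IH5DR2. The IH5DR2 arrays lay above both other groups, and against Ctrl the change was 0.66 ± 0.18 (SE; adjusted p = 0.0414). One of its 3 probe sets, with a mean signal of 158, had -0.43, and the mean of all of them changed by 0.33 and was not called. Hsp90b1 had 896, 899 and 753 in IH5DR2, and its lowest array there was above the highest in Ctrl, with a change of 0.77 ± 0.17 (SE; adjusted p = 0.0225). Dnajc3 had 173, 120.3 and 83.8 in Ctrl and 216, 211 and 191 in IH5DR2, a change of 0.77 ± 0.22 (SE; adjusted p = 0.0499) that lay just inside the threshold. The largest change was that of Dnajc21, 1.20 ± 0.31 (SE; adjusted p = 0.0352), followed by Dnajb4, with 290.3, 324 and 342 in IH5DR2 and an adjusted p of 0.0247, and Hspa4l at 0.85 ± 0.20 (SE; adjusted p = 0.027).

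With the mean of all probe sets of a gene 3 members were called, and Dnajb4 (0.44), Dnajb6 (0.48), Hsp90b1 (0.72) and Dnajc3 (0.70) lost their calls as Hspa5 did. No member was called when Ctrl array 2 or 3 or any 1 of the IH5DR2 arrays was left out, 15 were called without Ctrl array 1 and 21 (18 up, 3 down) without Ctrl28 array 1. Against IH5D itself no member was called in IH5DR2, nor any of the 11656 genes (0%) by limma or by the methods' test after adjustment, and 3 members and 418 genes (3.59%) had an unadjusted p below 0.05. The largest member differences were Hspb1 at 0.63 ± 0.26 (SE) and the cofactor gene Hspbap1 at -0.58 ± 0.30 (SE), both with an adjusted p of 0.9995. The IH5D and IH5DR2 comparisons share the Ctrl arrays.

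The list of 13 measured HSF1-induced members also holds the mitochondrial Hspd1 and Hspe1. Of these 13 members 3 rose in IH5D (Dnaja1, Dnajb4 and Hspa4l), 2 in IH5DR2 (Dnajb4 and Hspa4l) and none in IH28D. Of all genes 5.4%, 4.38% and 6.05% rose in these comparisons. The list medians were -0.12, 0.01 and 0.06 against -0.09, -0.07 and 0.02 over all genes. Hspa1b, one of the strictly inducible HSP70 genes, had signals of 332, 415 and 418 in Ctrl, 358, 302 and 341 in IH5D and 265, 255 and 394 in IH5DR2. Its arrays overlapped between Ctrl and both treated groups, with changes of -0.21 ± 0.33 and -0.37 ± 0.33 (SE; adjusted p = 0.679 and 0.472). Its neighbour Hspa1a, whose near-identical sequence may share probes, changed by -0.19 ± 0.30 (SE; adjusted p = 0.67) in IH5D. Dnajb1, the inducible DnaJ of class B, changed by -0.39 ± 0.19 (SE; adjusted p = 0.191), and Hsph1 by 0.03 ± 0.17 (SE; adjusted p = 0.921). The Dnajb1 signals of 470.2, 484 and 499 in IH5D lay below those of 531, 739.8 and 647 in Ctrl. Hspb1, the small heat shock protein Hsp27, had 85.6, 129.8 and 109 in IH5D, also below the 149, 169 and 182 in Ctrl, and a change of -0.64 ± 0.26 (SE; adjusted p = 0.116). Hsp90aa1, higher on all IH5D arrays as given above, had 3034, 3329.7 and 3444 in IH5DR2, again above Ctrl, and a change of 0.28 ± 0.15 (SE; adjusted p = 0.234). Hspa8, the abundant constitutive HSP70, lay between 7508 and 8022 in IH5D, inside the Ctrl range of 7337 to 9889.

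**Figure D3:**
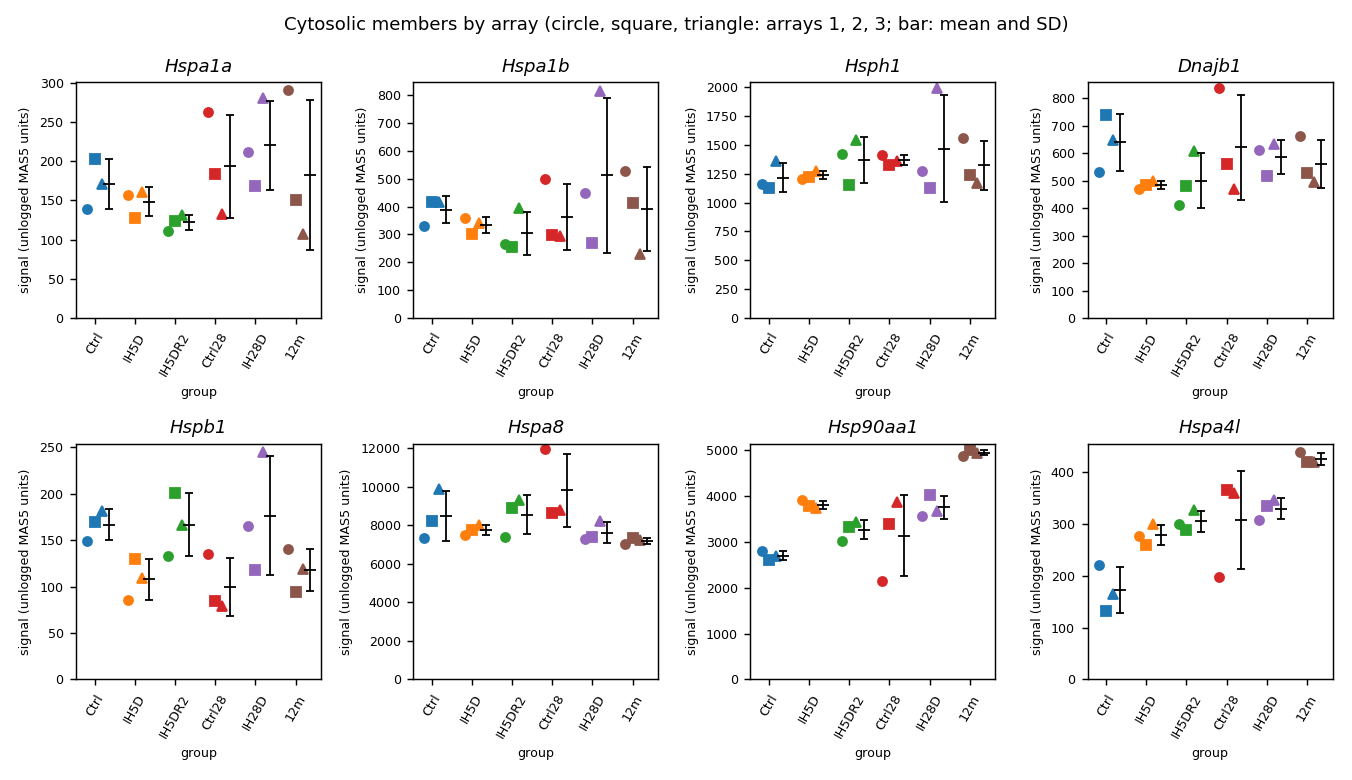
Unlogged MAS5 signal (vertical axes, from 0) of 8 cytosolic members on each of the 18 arrays, by group (horizontal axes); circles, squares and triangles are arrays 1, 2 and 3, and the black bar is the mean with SD of 3 arrays. Hspa1a, Hspa1b, Hsph1 and Dnajb1 overlap between IH5D or IH5DR2 and Ctrl or lie below it, while Hspa4l and Hsp90aa1 are higher on all 12 m arrays than on any Ctrl array.

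After 28 sessions of IHT a single member differed from Ctrl28, 1 of 59 where 8.49% of all genes were called (6.05% up, 2.45% down). Hspbp1, a nucleotide exchange factor of HSP70 that also inhibits the ubiquitin ligase Chip, had 265, 269.7 and 247 in IH28D and 144, 109.9 and 96.8 in Ctrl28. All IH28D arrays were above all Ctrl28 arrays, and the change was 1.18 ± 0.16 (SE; adjusted p = 0.000186). The 3′ to 5′ gap was 0.328 to 0.422 on the IH28D arrays and 0.822 to 2.39 on the Ctrl28 arrays, so RNA quality and group cannot be told apart here either. Ctrl28 was the low group: Ctrl had 299, 398 and 345, and IH5D 272, 302 and 249. Against Ctrl the 28 sessions gave Hspbp1 a change of -0.41 with an adjusted p of 0.0538.

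The next changes in IH28D did not pass the test. Hspb1 had 166, 118 and 245 in IH28D and 135, 84 and 78.8 in Ctrl28, which overlap, and a change of 0.81 ± 0.26 (SE; adjusted p = 0.0586). Hspa1b reached 816 on IH28D array 3 and had 448 and 271 on the other two, with a change of 0.39 ± 0.33 (SE; adjusted p = 0.506). Hspa5 was at 1308, 1058 and 1981 in IH28D and 1249, 1502 and 1473 in Ctrl28, with group ranges that overlap (adjusted p = 0.994).

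Without Ctrl28 array 1, the array with the high 3′ to 5′ gap, 7 members were called in IH28D (5 up, 2 down). Hspb1, Hspb6, Dnajb5 and Dnajc30 were added to the rises, and Hspa13 and Dnajc8 fell. The number was 2 without Ctrl28 array 2 or 3, IH28D array 2 or 12 m array 3. The shares of all genes with these arrays left out are not given here. Against Ctrl in place of Ctrl28, IH28D had 17 members up and 7 down where 33.3% of all genes were called (17.5% up, 15.8% down), and against IH5D no member or other gene was called (0%).

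The effect of 28 sessions was set against that of 5 sessions by the difference of the contrasts, each against its own control. It differed for 4 members, 6.78% of the 59, of which 2 were higher and 2 lower after 28 sessions. Of all genes 9.65% were called (6.57% higher, 3.08% lower). The difference also holds the change from Ctrl to Ctrl28, and IH28D against IH5D called no gene (0%). Hspbp1 had -0.34 in IH5D and 1.18 in IH28D, a difference of 1.51 ± 0.22 (SE; adjusted p = 0.000744). Hspb1 had -0.64 and 0.81, a difference of 1.45 ± 0.36 (SE; adjusted p = 0.0187). Dnajb6 had 0.49 and -0.15, a difference of -0.63 ± 0.15 (SE; adjusted p = 0.0143), and the HSP110 gene Hspa4 had 0.78 and -0.41, a difference of -1.19 ± 0.35 (SE; adjusted p = 0.0403). Averaged over its probe sets, Dnajb6 had a difference of -0.23 and was not called (adjusted p = 0.671). The number called was 2 without IH5D array 1 or Ctrl28 array 3, 7 without Ctrl array 1 and 23 (6 up, 17 down) without Ctrl28 array 1. Hspb1 lost its call without IH5D array 1, Ctrl28 array 3 or IH28D array 3, and Hspa4 without Ctrl array 2 or 3, any IH5D array, IH5DR2 array 2, Ctrl28 array 2 or 3 or IH28D array 1 or 2.

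The normoxic controls themselves differed. Ctrl28 against Ctrl had 20 members up and 6 down, 44.1% of the members where 37.8% of all genes were called (16.9% up, 21% down). The endoplasmic reticulum list, which does not hold Dnajc14, had 7 of the rises and no fall, with a median of 0.41 against -0.08 over all genes. Hspa13, an HSP70 of microsomes, had 204, 141 and 150.3 in Ctrl and 278, 438 and 451 in Ctrl28, a change of 1.22 ± 0.19 (SE; adjusted p = 0.000122). Hspa5 had 1249, 1502 and 1473 in Ctrl28 and changed by 1.08 ± 0.18 (SE; adjusted p = 0.000234). Dnajb4 changed by 1.34 ± 0.23 (SE; adjusted p = 0.000295), Dnajc21 by 1.26 ± 0.31 (SE; adjusted p = 0.00419) and Dnajc3 by 1.06 ± 0.22 (SE; adjusted p = 0.00154). The other probe sets of Dnajb4, with mean signals of 53.1 and 31.2, had -0.21 and -0.53, and the mean of its probe sets changed by 0.20 and was not called, as was the case for Dnajb6 (0.31) and Hspa12a (0.32). A dimmer probe set of Dnajc1, Dnajc8 and Hspa14 also had the opposite sign.

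The falls in Ctrl28 were led by Hspbp1 at -1.58 ± 0.16 (SE; adjusted p = 3.26e-06), an expression of 0.33 times that in Ctrl. Dnajc30, a mitochondrial DnaJ protein bound to the ATP synthase, had 632, 749 and 724 in Ctrl and 485, 336 and 321 in Ctrl28, and fell by 0.90 on the log2 scale (adjusted p = 0.000114). Hspb6 (-0.98), Hspb1 (-0.79), Dnajc14 (-0.55) and the neuronal Dnajb2 (-0.55) were the other falls, and single arrays of Ctrl or Ctrl28 left out ended the calls of Hspb6 (without Ctrl array 1 or 2 or Ctrl28 array 2 or 3), Hspb1 (without Ctrl array 2 or 3 or Ctrl28 array 2 or 3) and Dnajb2 (without Ctrl array 2). The 3′ to 5′ gap was 0.822 to 2.39 on the Ctrl28 arrays and 0.339 to 0.469 on the Ctrl arrays, so RNA quality and group cannot be told apart. The lowest correlation with another array of the group was 0.905 to 0.916 in Ctrl28 and 0.948 to 0.973 elsewhere. The Ctrl28 samples also carry a run of sample numbers apart from all others. Whether they were processed apart is not in the labels, and both comparisons with Ctrl28 cross this divide. Without Ctrl28 array 1, 23 members rose and 10 fell, and all 26 calls were kept.

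The 12 m mice differed most from Ctrl, with 24 members up and 11 down. This is 59.3% of the members where 53.3% of all genes were called. Of all genes 21.7% rose and 31.6% fell. The member median was -0.02 against -0.23 over all genes. With arrays centred on their median, where the median of all genes was -0.36, the split was 19 up and 17 down, and with quantile normalization 23 and 15.

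Of 13 members on the endoplasmic reticulum list 8 rose and none fell, and their median was 0.52 on the log2 scale. The absence of falls holds for the list as drawn. Dnajc14, which was counted with nucleus, splicing and ribosome, fell from 343, 403 and 399 in Ctrl to 271, 242 and 209 in 12 m. Hsp90b1 had 1154, 1138 and 1132 in 12 m against 586, 527 and 398 in Ctrl. The groups did not overlap, and the change was 1.20 ± 0.17 (SE; adjusted p = 4.77e-05). Dnajc3 had 275, 272 and 285 in 12 m and changed by 1.20 ± 0.22 (SE; adjusted p = 0.000375), and Hspa13 by 0.98 ± 0.19 (SE; adjusted p = 0.000465). Hspa5 had 1019, 931 and 906 in 12 m, all above the Ctrl arrays, with a change of 0.52 ± 0.18 (SE; adjusted p = 0.0225). That call was lost without Ctrl array 2 or 3 or 12 m array 1, and one of its 3 probe sets, with a mean signal of 158, had -0.29. Dnajb9 (ERdj4) and Dnajc10 (ERdj5), cochaperones of Hspa5 in degradation and disulfide reduction, changed by 0.41 ± 0.12 and 0.48 ± 0.14 (SE; adjusted p = 0.00738 and 0.00901), and Dnajb14 and Dnajc1 were the other rises. Dnajb11 (ERdj3), which works on nascent clients with Hspa5, had -0.15 ± 0.15 (SE; adjusted p = 0.412).

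In the cytosol Hspa4l, Hspa4 and Hsp90aa1 rose in 12 m while the inducible HSP70 genes did not pass the test. Hspa4l had 439, 419 and 419 in 12 m against 221, 133 and 165 in Ctrl, without overlap, and changed by 1.33 ± 0.20 (SE; adjusted p = 7.77e-05). Hsp90aa1 had 4888, 5001 and 4950.2 against 2804, 2602 and 2691 in Ctrl, a change of 0.87 ± 0.15 (SE; adjusted p = 0.000206) without overlap. Hspa1b had 529, 412 and 231 and Hspa1a 290.3, 150.0 and 107, and their 3 arrays spread over more than the Ctrl range on both sides, with changes of -0.06 ± 0.33 and -0.02 ± 0.30 (SE; adjusted p = 0.878 and 0.965). Hsph1 changed by 0.11 ± 0.17 (SE; adjusted p = 0.592), Hspa8 by -0.23 ± 0.13 (SE; adjusted p = 0.152) and Dnajb1 by -0.19 ± 0.19 (SE; adjusted p = 0.424). Hspa4 at 0.73, Hspa12a at 0.40 and Hspa14 at 0.60 completed the 4 rises among 9 cytosolic HSP70 and HSP110 members, and Hspa4 lost its call without Ctrl array 2 or 3 or 12 m array 1 or 3, Hspa12a without Ctrl array 2 or 3 or 12 m array 1 or 2.

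The largest member changes in 12 m were those of Dnajc21 and Dnajb4, both DnaJ proteins. Dnajc21 had 230.0, 242 and 332 in 12 m and 47.1, 52.6 and 51.2 in Ctrl, which is 5.26 times as much, with a log2 change of 2.39 ± 0.31 (SE; adjusted p = 2.29e-05). Its second probe set, with a mean signal of 100.2, changed by 1.76. Dnajb4 had 553, 501 and 554 and changed by 1.75 ± 0.23 (SE; adjusted p = 2.63e-05), while a dimmer probe set of it had the opposite sign. Dnajc2 changed by 1.18 ± 0.17 (SE; adjusted p = 5.49e-05). Dnajb6 changed by 0.61 ± 0.11 (SE; adjusted p = 0.000249), Dnaja1 by 0.78 ± 0.16 (SE; adjusted p = 0.0007) and Dnaja2 by 0.48 ± 0.10 (SE; adjusted p = 0.00078). Among the DnaJ proteins of synapse and endosome the signs differed: Dnajc13, an endosomal protein, rose by 1.03 ± 0.21 (SE), Dnajc6 (auxilin, which uncoats clathrin vesicles) by 0.35 ± 0.11 (SE; not called without Ctrl array 2 or 12 m array 2), and Dnajc5 (cysteine string protein of synaptic vesicles) had 882, 885 and 954 against 1207, 1183 and 1364 in Ctrl, a change of -0.46 ± 0.11 (SE; adjusted p = 0.00256).

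The falls in 12 m held small heat shock proteins and mitochondrial members. Hspb6 and Hspb8, a partner of the autophagy cochaperone Bag3, had changes of -1.24 ± 0.34 and -1.05 ± 0.24 (SE; adjusted p = 0.00582 and 0.0018), and Hspb1 had -0.51 ± 0.26 (SE; adjusted p = 0.0983). Hspb8 had 76.8, 51 and 46.6 in 12 m and 139, 133 and 88 in Ctrl, without overlap. Of 9 mitochondrial members 2 rose and 4 fell, and the pair of the folding chamber was split. Hspe1, the lid, had 858, 731 and 631 in 12 m and 1188, 1818 and 1758 in Ctrl, and fell by 1.09 on the log2 scale (SE 0.26; adjusted p = 0.00226). Hspd1, the chamber, had 922, 901 and 808 in 12 m against 722, 550.5 and 663 in Ctrl. It rose by 0.45 ± 0.16 (SE; adjusted p = 0.0217), although that call was lost without Ctrl array 2 or 12 m array 1 or 2. The second probe set of Hspe1 changed by -0.73, Hspd1 has a single probe set here, and the brighter Hspe1 probe set is of a type that may match related sequences. Dnajc30 had 387, 369 and 385 in 12 m and changed by -0.88 ± 0.14 (SE; adjusted p = 0.000101), and Hspbp1 by -0.89 ± 0.16 (SE; adjusted p = 0.000258).

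**Figure D4:**
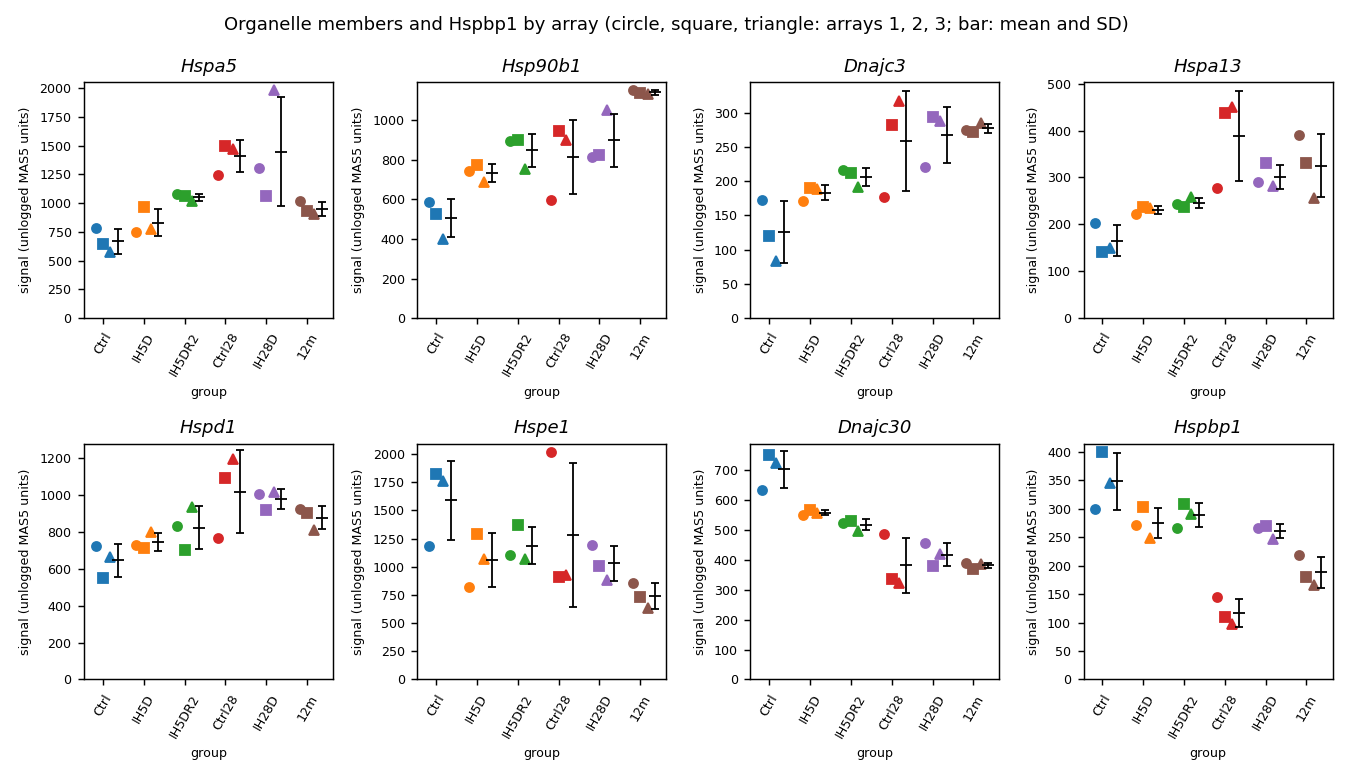
Unlogged MAS5 signal (vertical axes, from 0) of 7 members of the endoplasmic reticulum and mitochondria and of Hspbp1 on each of the 18 arrays, by group (horizontal axes); circles, squares and triangles are arrays 1, 2 and 3, and the black bar is the mean with SD of 3 arrays. Hsp90b1 and Dnajc3 are higher on all 12 m arrays than on any Ctrl array, Hspe1 and Dnajc30 are lower, and Hspbp1 is lowest in Ctrl28. Array 1 of Ctrl28 (red circle) lies away from the other two for Hspe1, Hsp90b1 and Dnajc3.

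Without 12 m array 3, the array with few hippocampal markers, 33 members were called (22 up, 11 down) and 32 of the 35 calls were kept; Dnajc15, Dnajc28 and Hspa4 lost theirs. The choroid plexus markers were at 755 to 1811 in 12 m, below every Ctrl array, with 9 of 11 called lower, and with them as a covariate 21 members were called (16 up, 5 down). Microglial markers summed to 2304 to 2562 in 12 m and 3015 to 3759 in Ctrl, and 4 of 7 were called lower and 1 higher. Of the 14 markers of hippocampal neurons 7 were called lower and 2 higher, with a median of -0.89, and one of them, Wfs1, was at 414, 337 and 159 in 12 m against 757 to 846 in Ctrl. Of 7 oligodendrocyte markers 4 were lower and 2 higher. The 12 m arrays had a 3′ to 5′ gap of 0.617 to 0.861, above the 0.339 to 0.469 of Ctrl, so RNA quality and group cannot be told apart. With the gap as a covariate 42 members were called (24 up, 18 down), but that fit cannot separate them, as the ranges do not overlap. The part of the neuronal, glial and microglial markers in the member changes was not tested. Against Ctrl28 in place of Ctrl, 4 members rose and 6 fell in 12 m where 16.3% of all genes were called (8.04% up, 8.3% down). Of the 35 calls against Ctrl only 5 were kept in the same direction, and 2 were called in the opposite direction. In those 2, Hspa5 fell by 0.56 on the log2 scale (adjusted p = 0.0398) and Hspbp1 rose by 0.69 (adjusted p = 0.00726). Among the calls lost were Dnajc3, Hspa13, Hspa4l, Dnajb4, Dnajb6, Hspe1 and Dnajc30.

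Genes outside the families that work with them were counted from fixed lists. Of 28 measured HSF factors and HSP70 or HSP90 cochaperones, the IH5D comparison called 1 up and 1 down, IH5DR2 1 up, IH28D 6 up and 1 down, and 12 m 6 up and 15 down. These stand against 6.05% of all genes up and 2.45% down in IH28D, and 21.7% up and 31.6% down in 12 m. The median of the list and that of all genes were both 0.02 in IH28D, and they were -0.44 and -0.23 in 12 m. Cdc37, which delivers kinases to HSP90, was higher in IH28D than in Ctrl28 by 1.09 ± 0.12 (SE; adjusted p = 2.42e-05), and the HSP90 phosphatase Ppp5c by 0.74 ± 0.15 (SE; adjusted p = 0.00557). The Ctrl28 arrays are also the low group for both, at -1.35 ± 0.12 and -1.20 ± 0.15 (SE) against Ctrl. In 12 m the HSP90 cochaperones Chordc1 and Ahsa2 were higher than in Ctrl by 1.40 ± 0.18 and 1.06 ± 0.16 (SE; adjusted p = 2.42e-05 and 9.93e-05).

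Of 29 measured genes of the unfolded protein response other than members, 1 rose in IH5D (Atf6, by 0.58 ± 0.17 with SE and an adjusted p of 0.04996). None rose or fell in IH5DR2, where the list median was -0.215 against -0.07 over all genes. In 12 m 2 rose and 14 fell. Of all genes 21.7% rose and 31.6% fell there. The list median in 12 m was -0.53 and that of all genes -0.23, and the list of endoplasmic reticulum members had 0.52. The falls with the smallest p were Asns at -0.72 ± 0.12 (SE; adjusted p = 0.00017) and the ubiquitin ligase Syvn1 at -0.85 ± 0.14 (SE; adjusted p = 0.000184), and the rises were Atf6 and the lectin chaperone Canx. Of 16 subunits of the chaperonin CCT, prefoldin and their partner Pdcl, 2 rose in IH5D (Vbp1, 0.86, and Pdcl, 0.57) and 2 in IH5DR2. In IH28D 3 fell (led by Cct4 at -0.57 and Cct6a at -0.48), and in 12 m 3 rose and 6 fell. Ctrl28 was the high group for Cct4 and Cct6a. Their means were 1505 and 2252 in Ctrl28, against 1086 and 1870 in Ctrl and 1009 and 1621 in IH28D. In Ctrl28 against Ctrl 5 of the 16 rose and none fell, where 16.9% of all genes rose and 21% fell.

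Several properties that the rule did not use were set beside the changes. By RefSeq gene models the median gene length was 28.4 kb for the 24 members that rose in 12 m, 23.6 kb for the 11 that fell and 17.8 kb for the others. Over all genes it was 51.2 kb for rises and 14.7 kb for falls. Spearman's rho of gene length and log2 change in 12 m was 0.28 over the 59 members and 0.38 over 11613 genes, which share the same arrays. Of the 39 members with several probe sets above the minimum, 31 had one sign on all of them in 12 m, and Dnajb4 and Hspa5 were the called ones that did not.

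The 13 members below the minimum were Hspa1l, Hspa12b, Hspb2, Hspb3, Hspb7, Hspb9, Dnajb3, Dnajb7, Dnajb8, Dnajb13, Dnajc5b, Dnajc5g and Dnajc22. Dnajc25 with a mean signal of 24.4 lay just inside and Hspb3 with 16.9 just outside. Hspb2, Hspb3, Hspb7 and Hspb9 are among them, so that 3 of 7 small heat shock proteins were measured, all of them lower in 12 m than in Ctrl in the fit and 2 past the threshold.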

How the data were processed

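RNA of 18 hippocampus samples in 6 groups of 3 was measured on Affymetrix arrays. Per the submitters' notes the authors computed the signals with MAS5, and deposited them on the log2 scale, scaled to a trimmed mean of 100.03 to 100.04 on every array. Background, scaling and the choice of scale can move all genes of an array together, and the arrays give no read depth, so that precision rests on 3 arrays per group. Of 45101 probe sets 34945 stand for one gene by GEO's platform annotation, 932 for several and 9160 for none; 64 are controls. Symbols of all 72 members were found among the RefSeq genes (GRCm38.p6).

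Limma 3.58.1 (R 4.3.3, the data.table package 1.17.8) fitted one mean per group over all arrays, with a variance trend and 12 residual degrees of freedom, and Benjamini-Hochberg adjustment over all genes tested. Adjusted p-values are from this fit. It was tested on simulated data. Promoters were searched and plots drawn with Python 3.11.15, pandas 2.3.3 and matplotlib 3.10.9. The members, gene lists and tests were chosen with earlier results of these data known. Named were 27 fixed members, the 4 largest rises and 4 largest falls per comparison with a group mean of at least 100, the 2 partners of smallest p per list, and some members after their values were seen. Replicate numbers come from the labels. Same-numbered arrays deviated together in IH5D and Ctrl (correlations of 0.153 to 0.289), so the numbers were taken to pair these in an alternative fit. The main fit did not use the pairing. In the other comparisons not every pair deviated together. The choroid plexus markers of arrays 1, 2 and 3 summed to 16379, 20231 and 1920 in Ctrl and 10212, 18853 and 3403 in IH5D. What the correlations come from was not tested. Alternatives covered the minimum signal, probe sets, scaling, variance trend, block, covariates, the methods' test and arrays left out.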

Additional observations from a re-analysis of the deposited data

Results flagged for a closer look

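The effect of 28 sessions of IHT against Ctrl28 differed from that of 5 sessions against Ctrl for 4 members, by the test of the difference in the same limma fit. This is 6.78% of the members, where 9.65% of all genes were called. The difference in log2 change was 1.51 for Hspbp1 (1.18 against -0.34; adjusted p = 0.000744) and 1.45 for Hspb1 (0.81 against -0.64; adjusted p = 0.0187). It was -0.63 for Dnajb6 (-0.15 against 0.49; adjusted p = 0.0143) and -1.19 for Hspa4 (-0.41 against 0.78; adjusted p = 0.0403). The single comparisons called Hspbp1 in IH28D and Dnajb6 in IH5D, and the others passed in neither. The Dnajb6 difference was -0.23 and not called when its probe sets were averaged. The controls enter the difference too. Hspbp1 had 272, 302 and 249 in IH5D and 265, 269.7 and 247 in IH28D, but 299, 398 and 345 in Ctrl and 144, 109.9 and 96.8 in Ctrl28. Dnajb6 means were 1533 in IH5D and 1659 in IH28D, against 1096 in Ctrl and 1838 in Ctrl28. The means of Hspb1 and Hspa4 also moved between IH5D and IH28D, where no gene was called (0%).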

How the results depend on the processing

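The main counts were 8 members called in IH5D, 9 in IH5DR2, 0 in IH5DR2 against IH5D, 1 in IH28D, 35 in 12 m, 26 in Ctrl28 and 4 for the difference of IH28D and IH5D. With single arrays left out the counts ranged over 0 to 20, 0 to 21, 0 to 0, 1 to 7, 27 to 38, 20 to 33 and 2 to 23. The share of all genes called under each alternative is not given here. A shift in these counts is therefore not a result about the members. In IH5D the count was 1 with no minimum signal, 2 with no variance trend, 16 with the compared groups alone, 3 with the replicate block, 29 with the replicate block over the compared groups alone, 21 with a covariate for the 3′ to 5′ gap, 2 with the choroid plexus markers as a covariate, 20 without both arrays in doubt, and 15 by the methods' test unadjusted and 0 adjusted. In IH5DR2 it was 14 with a minimum of 100, 3 with the mean of all probe sets, 5 with median centring, 5 with no variance trend, 18 with the compared groups alone, 21 with the gap as a covariate, 21 without both arrays, and 16 by the methods' test unadjusted and 0 adjusted. In IH28D it was 3 with a minimum of 100, 3 with the mean of all probe sets, 2 with median centring, 0 with the compared groups alone, 7 with the gap, 7 without both arrays, 24 against the other control, and 4 by the methods' test unadjusted and 0 adjusted. In 12 m it was 21 with the choroid plexus markers, 10 against the other control and 9 by the methods' test adjusted. In Ctrl28 it was 11 with the compared groups alone, and 15 by the methods' test unadjusted and 0 adjusted. The difference of IH28D and IH5D gave 7 with a minimum of 100, 25 with the gap and 25 without both arrays, and IH5DR2 against IH5D gave 4 by the methods' test unadjusted. The leave-one-out fits of other groups, the choroid plexus covariate, both arrays together, the block over 2 groups and the other control were chosen after seeing the data.

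Of 58 named changes 8 turned sign, each against the other control: Hspbp1 in IH28D (-0.41), and in 12 m Dnaja1 (-0.0736), Dnajb6 (-0.15), Hspa5 (-0.56), Hspd1 (-0.19), Hspa12a (-0.0827), Dnajc30 (0.0253) and Hspbp1 (0.69). Of their 1815 values under alternatives 1511 kept direction and side of the threshold and 296 kept the direction but lost the call. Only changes already called were named, so a call could be kept or lost but not gained. Some alternatives, such as leaving out an array of a group not compared, cannot move the log2 change. The number kept is therefore no measure of how firm the changes are. The causes were not tested. The replicate block changed no other count by more than 1.5 times. Signals near the minimum and 3 arrays per group limit what small changes can be called.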

Other observations

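Among the 13 measured HSF1-induced members, Hspa1b, Hsph1 and Hspb1 had their highest signal of all 18 arrays on IH28D array 3, where Hspa1a and Hspa5 also had the highest signals of their group. Hspa1b was at 816 there, Hsph1 at 1992, Hspb1 at 245 and Hspa1a at 281. The 3′ to 5′ gap of this array was 0.338. On 12 m array 1, 8 of the 13 members were among the 3 highest of the 18 arrays, with Hspa1a at 290.3, and array 1 of Ctrl28 held the highest signals of Dnajb1, Hspa8 and Hspe1.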
